A study of Mus musculus with 12 samples.

Results

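Of the 28991 genes in the count table, 10 are described here: Dhrs3, Hao2, Cyp2d26, Cyp2d22, Ddc, Slc5a11, Pla2g5, Bhmt, Pdzk1ip1 and Fam151a. They were picked because their RNA was lower in kidneys of cisplatin-injected mice than in saline kidneys, yet higher in kidneys of mice given cisplatin on top of dichloroacetate than in dichloroacetate kidneys. All 10 were among the 20370 genes with enough counts to be tested. The genes were thus selected on the measured values of all 4 groups. Their changes are given as a description, with a standard error (SE) and no p-value.

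Whole-kidney RNA of male BALB/c mice, an inbred laboratory strain, was sequenced at 8 weeks of age in 4 groups of 3 mice. The study asked how dichloroacetate given before and with cisplatin alters the kidney's response to the drug. Cisplatin is a platinum chemotherapy agent that injures the kidney tubule, and dichloroacetate inhibits the kinases that switch off pyruvate dehydrogenase. Labels call the replicates biological, so p-values measure the spread between mice of 1 experiment.

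The Cisplatin+Dichloroacetate group, called the combination from here on, received dichloroacetate at 250 mg/kg daily by intraperitoneal injection for 5 days. A last injection then held both dichloroacetate and cisplatin at 20 mg/kg. The Cisplatin group received saline daily for 5 days and then the same single dose of cisplatin. Kidneys of both groups were taken 24 h after cisplatin. The Dichloroacetate group received the daily drug for 6 days, and the Saline group received daily saline for 6 days. No mouse carried a transgene or a deletion, as far as the labels say.

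Most of the 10 genes encode enzymes and transport proteins known from the proximal tubule, the nephron segment that reabsorbs the bulk of the filtrate. That segment takes up cisplatin from the blood, depends on mitochondrial and peroxisomal oxidation, and loses much of its transport and metabolic gene expression when injured. Dhrs3 acts on retinoids, Hao2 on hydroxy acids, Cyp2d26 and Cyp2d22 are cytochromes P450, Ddc makes dopamine, Pla2g5 cleaves phospholipids, Bhmt recycles homocysteine, and Slc5a11 and Pdzk1ip1 belong to sodium-coupled transport.

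Response to cisplatin was measured once without dichloroacetate (Cisplatin versus Saline) and once with it (the combination versus Dichloroacetate). These 2 comparisons share no library. Calls rest on edgeR's quasi-likelihood test, with the Benjamini-Hochberg adjusted p over all tested genes below 0.05. All 10 genes were called lower in Cisplatin than in Saline, with log2 fold changes of -1.18 to -0.32 and a median of -0.58, where 30.4% of tested genes were called lower and the median gene stood at -0.01. All 10 were called higher in the combination than in Dichloroacetate, with log2 fold changes of 0.23 to 1.32 and a median of 0.48, where 21.5% of tested genes were called higher and the median gene stood at 0.01. In each of these comparisons the 3 libraries of the groups did not overlap for any of the 10 genes, which held for 32.7% of tested genes (lower), 28.5% (higher) and 0.903% (both). The rule fixed these counts. Both calls together were met by 97 genes, 0.476% of those tested, against 3475 genes called lower in both comparisons (17.1%) and 3607 called higher in both (17.7%).

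**Figure D1:**
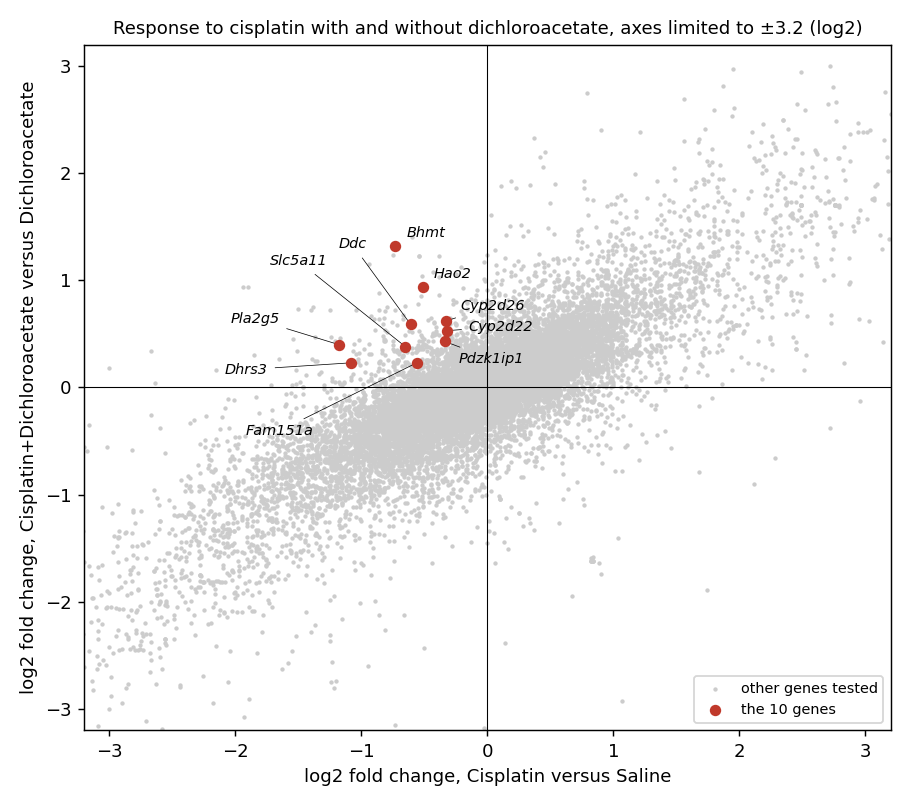
Each point is a tested gene. The horizontal axis is its log2 fold change in Cisplatin versus Saline and the vertical axis its log2 fold change in the combination versus Dichloroacetate, with axes limited to 3.2 in each direction, which leaves 273 genes outside. The 10 genes (red) lie at the upper left, while the cloud of other genes runs from lower left to upper right.

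The difference between the 2 responses is called the interaction, the log2 response to cisplatin with dichloroacetate minus that without it. It ran from 0.78 in Pdzk1ip1 to 2.06 in Bhmt, with a median of 1.12 over the 10 genes and 0.03 over all tested genes. Bhmt had the largest interaction of the 10, with the widest SE at 0.24. All 10 genes were called for the interaction, where 11.4% of tested genes were called above 0, a count the rule also fixed.

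Library totals were 29505929 to 35082408 counts in the combination, 29614283 to 35925471 in Cisplatin, 41525403 to 62237514 in Dichloroacetate and 38236592 to 55832441 in Saline. The 10 genes had between 141 and 24032 counts per library. At the lowest, in Pla2g5, counting error alone is 8.42% of the level, next to a biological coefficient of variation of 0.092 over all tested genes. With TMM scaling, 49.4% of the genes called in Cisplatin versus Saline were higher, and 52.8% of those called in the combination versus Dichloroacetate. With library totals alone these shares were 73.1% and 79.2%, and the median gene moved by 0.28 and 0.19 on the log2 scale. The shares with TMM and with library totals were 57.3% and 31.1% in the combination versus Cisplatin, 51.3% and 74.9% in the combination versus Saline, 41.3% and 22.4% in Dichloroacetate versus Saline (54.2% with DESeq2), and 61.5% and 41.8% for the interaction. Under that scaling Cyp2d26, Cyp2d22 and Pdzk1ip1 were not called lower in Cisplatin versus Saline, and the other 7 genes kept both calls. All 10 genes remained below 0 in that comparison and above 0 in the combination versus Dichloroacetate under each scaling tried. With library totals, however, Cyp2d26, Cyp2d22 and Pdzk1ip1 were close to 0 in Cisplatin versus Saline, at -0.05, -0.04 and -0.06. Saline replicate 2 held traces of liver and adrenal RNA. Albumin (Alb) stood at 6.39 CPM there (counts per TMM-scaled library total, as edgeR computes it), against 1.84 and 2.07 CPM in Saline replicates 1 and 3, and the adrenal enzyme Cyp11a1 at 0.844 CPM, against 0.0443 and 0.0288 CPM.

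Dhrs3 (ENSMUSG00000066026, GRCm38 chr4:144892827-144928209, plus strand) encodes a reductase that returns retinaldehyde to retinol and so limits retinoic acid formation. It had 112, 100 and 101 CPM in the combination, 58, 52.2 and 57.3 CPM in Cisplatin, 83.7, 96.9 and 86.8 CPM in Dichloroacetate, and 112, 120 and 122 CPM in Saline. Cisplatin kidneys were the lowest, every combination kidney lay above every Dichloroacetate kidney, and no groups overlapped, although the highest combination and the lowest Saline kidney both round to 112 CPM. The log2 fold change was -1.08 ± 0.07 (SE) in Cisplatin versus Saline and 0.23 ± 0.07 in the combination versus Dichloroacetate. The interaction of 1.31 ± 0.10 was thus made mostly by the first of these. The rise over Dichloroacetate was not called without Dichloroacetate replicate 1 (0.19), Dichloroacetate replicate 3 (0.21) or combination replicate 1 (0.18).

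Over all tested genes, 29.7% were called higher and 30.4% lower in Cisplatin versus Saline with TMM scaling. In the combination versus Dichloroacetate these shares were 21.5% and 19.2%. They are the background for this and each later list. Among 27 other tested genes of retinoid metabolism, 9 were called higher and 10 lower in Cisplatin versus Saline (median log2 fold change -0.12), and 9 higher and 8 lower in the combination versus Dichloroacetate (median -0.05). Both medians turned positive with library totals, at 0.15 and 0.14, with 13 higher and 7 lower, and 12 higher and 2 lower. No other gene of the list was called in opposite directions. Lrat, which esterifies retinol for storage, fell by 3.85 in Cisplatin versus Saline (edgeR adjusted p = 2.7e-08) and fell by 2.20 in the combination versus Dichloroacetate (adjusted p = 7.6e-06) on the log2 scale. Adh7, a retinol-oxidising alcohol dehydrogenase, rose by 1.26 in Cisplatin versus Saline (adjusted p = 0.00023) and stood at -0.51 in the combination versus Dichloroacetate (adjusted p = 0.089). Stra6, the cell-surface retinol transporter, was higher in both, at 0.41 (adjusted p = 0.031) and 1.25 (adjusted p = 2.7e-05). Its first call was lost with DESeq2 (0.42) and without Saline replicate 1 or 3 or any Cisplatin replicate, at 0.32 to 0.43.

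Hao2 (ENSMUSG00000027870, GRCm38 chr3:98874521-98893239, minus strand) encodes a peroxisomal oxidase of long-chain hydroxy acids. Its levels were 659, 653 and 625 CPM in the combination, 243, 274 and 327 CPM in Cisplatin, 302, 336 and 373 CPM in Dichloroacetate, and 418, 388 and 394 CPM in Saline. The 3 combination kidneys stood far above all 9 others, while the highest Cisplatin kidney overlapped the Dichloroacetate kidneys. Its log2 fold change was -0.51 ± 0.10 in Cisplatin versus Saline and 0.94 ± 0.10 in the combination versus Dichloroacetate. Against Saline the combination was 0.69 higher, the largest such value of the 10 genes. Its promoter is printed because it carries 3 copies of the half-site GTTAAT, more than any other promoter found for these genes. The stretch runs from 250 bases before to 50 bases after the RefSeq start (GRCm38.p6, chr3:98893181-98893480, minus strand), and capitals mark GTTAAT or its reverse complement.
Hao2: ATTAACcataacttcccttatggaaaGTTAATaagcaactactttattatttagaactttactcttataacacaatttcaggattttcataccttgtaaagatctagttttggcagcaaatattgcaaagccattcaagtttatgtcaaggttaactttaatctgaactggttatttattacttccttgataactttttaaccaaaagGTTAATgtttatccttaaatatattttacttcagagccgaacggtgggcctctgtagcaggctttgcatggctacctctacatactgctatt

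Of 15 other tested genes in a list of peroxisomal oxidases and hydroxy acid enzymes, 1 was called higher and 13 lower in Cisplatin versus Saline (median -0.81), and 2 higher and 11 lower in the combination versus Dichloroacetate (median -0.43). Both medians stayed negative under every scaling tried. Paox, which oxidises acetylated polyamines, was the only other gene of the list called in opposite directions, at -0.30 ± 0.10 (edgeR adjusted p = 0.016) and 0.30 ± 0.10 (adjusted p = 0.025). Its lower call was lost without Cisplatin replicate 1 or 2 (-0.26 each) and with library totals (-0.03). Its higher call was lost without Dichloroacetate replicate 1 (0.21), combination replicate 1 (0.26) or combination replicate 3 (0.29). Agxt2, a mitochondrial aminotransferase for glyoxylate, stood at -1.67 (adjusted p = 3.7e-10) and -0.68 (adjusted p = 3.4e-06). Prodh2, a hydroxyproline dehydrogenase, stood at -1.70 (adjusted p = 5.5e-09) and -0.80 (adjusted p = 1.5e-05). Acox2, the branched-chain acyl-CoA oxidase, stood at -1.03 (adjusted p = 2.3e-08) and -0.18 (adjusted p = 0.046), and the second value was 0.01 with library totals. That second call was also lost with no filter (-0.17), with a replicate block (-0.18), and without Saline replicate 2, any Dichloroacetate replicate, or combination replicate 2 or 3 (-0.19 to -0.14).

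Cyp2d26 (ENSMUSG00000022445, GRCm38 chr15:82790101-82794294, minus strand) encodes a microsomal cytochrome P450 of the family that in humans holds the drug-oxidising CYP2D6. It had 132, 122 and 135 CPM in the combination, 110, 92.9 and 107 CPM in Cisplatin, 81.5, 86.7 and 84.9 CPM in Dichloroacetate, and 121, 130 and 137 CPM in Saline. Dichloroacetate kidneys, not Cisplatin kidneys, were the lowest, and the combination and Saline kidneys overlapped. In log2 terms it stood at -0.33 ± 0.07 in Cisplatin versus Saline, 0.62 ± 0.07 in the combination versus Dichloroacetate and -0.62 ± 0.07 in Dichloroacetate versus Saline. That last value is arithmetically 65.1% of the interaction of 0.95 ± 0.10, the highest such share of the 10 genes. The promoter is printed because it holds a TATA box, TATAAA, close to the start (GRCm38.p6, chr15:82794196-82794495, minus strand). Capitals mark TATAAA and GTTAAT, here both as reverse complements.
Cyp2d26: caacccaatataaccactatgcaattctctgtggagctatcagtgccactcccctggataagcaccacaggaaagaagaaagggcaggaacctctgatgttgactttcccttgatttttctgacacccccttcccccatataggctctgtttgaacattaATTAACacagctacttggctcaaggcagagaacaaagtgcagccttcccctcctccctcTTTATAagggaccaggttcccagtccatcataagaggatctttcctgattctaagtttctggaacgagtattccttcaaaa

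Cyp2d22 (ENSMUSG00000061740, GRCm38 chr15:82370527-82380260, minus strand), a second gene of the same family, lies at the other end of the Cyp2d cluster on chromosome 15. Its levels were 44.1, 42.1 and 46.5 CPM in the combination, 31, 30.1 and 35.1 CPM in Cisplatin, 28.7, 32.5 and 30.9 CPM in Dichloroacetate, and 39, 40.3 and 40.7 CPM in Saline. The combination kidneys were the highest, and Cisplatin and Dichloroacetate kidneys overlapped. Cyp2d22 stood at a log2 fold change of -0.32 ± 0.07 in Cisplatin versus Saline, the smallest of the 10 genes, and 0.53 ± 0.07 in the combination versus Dichloroacetate. Near-identical sequence in the cluster limits both genes: 9.49% of the 50-base windows in Cyp2d26 exons and 4.13% of those in Cyp2d22 exons also occur in other genes, nearly all of them Cyp2d genes or pseudogenes, and counting could split such reads.

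The Cyp2d genes between this pair were not called in opposite directions, apart from Cyp2d40. Cyp2d9 stood at -1.61 in Cisplatin versus Saline (edgeR adjusted p = 1.2e-06) and at -0.64 in the combination versus Dichloroacetate (adjusted p = 0.0048). Cyp2d12 stood at -1.84 (adjusted p = 1.7e-05) and -0.55 (adjusted p = 0.08), Cyp2d11 at -1.43 and -0.47, and Cyp2d10 at -1.16 and -0.34. In Dichloroacetate versus Saline, Cyp2d9, Cyp2d12, Cyp2d11 and Cyp2d10 stood at -0.53, -0.78, -0.67 and -0.63, none called, next to -0.62 in Cyp2d26 and -0.38 in Cyp2d22. Their interactions were called, at 0.97, 1.29, 0.96 and 0.82, next to 0.95 in Cyp2d26 and 0.85 in Cyp2d22. Cyp2d34 stood at -0.28, with an interaction of 0.42 that was not called. Cyp2d40, the neighbour of Cyp2d26 among protein-coding genes, was called in opposite directions at -0.52 ± 0.13 (adjusted p = 0.0032) and 0.43 ± 0.13 (adjusted p = 0.019). Its rise was not called by DESeq2 (0.41), with only the 2 groups fitted (0.43), or without Dichloroacetate replicate 1 (0.37), combination replicate 1 (0.36) or combination replicate 2 (0.39), and its fall was not called with library totals (-0.25). Over 20 other tested Cyp2 genes, 2 were called higher and 15 lower in Cisplatin versus Saline (median -1.21), and 3 higher and 11 lower in the combination versus Dichloroacetate (median -0.51). With library totals these counts were 3 higher and 12 lower, and 4 higher and 8 lower. The largest interaction of the list was that of Cyp2j7, at 1.94 (adjusted p = 0.0055), with -3.06 in Cisplatin versus Saline and -1.12 in the combination versus Dichloroacetate.

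**Figure D2:**
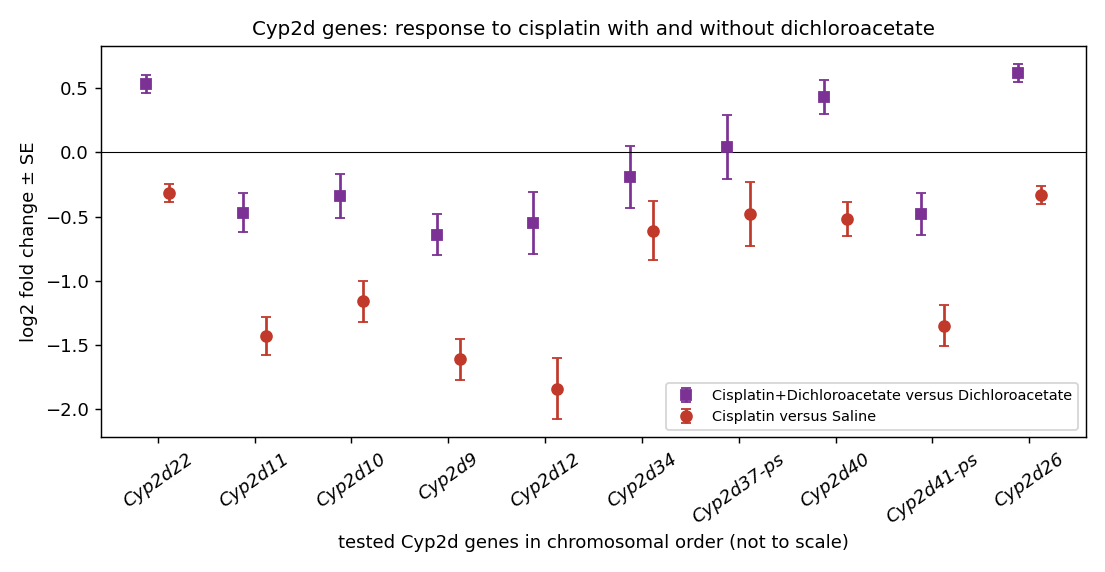
Log2 fold changes of the tested Cyp2d genes in their order along chromosome 15, with the combination versus Dichloroacetate and Cisplatin versus Saline as separate series and bars of 1 SE. Cyp2d22, Cyp2d40 and Cyp2d26 sit at 0.43 to 0.62 in the combination versus Dichloroacetate, while Cyp2d9 sits at -0.64.

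Ddc (ENSMUSG00000020182, GRCm38 chr11:11814101-11898144, minus strand) encodes aromatic L-amino acid decarboxylase, which makes dopamine from filtered L-DOPA in the proximal tubule. It had 54.1, 57.7 and 54.4 CPM in the combination, 29.6, 30.9 and 40.3 CPM in Cisplatin, 38.4, 35.9 and 35.7 CPM in Dichloroacetate, and 50.9, 50.1 and 52.8 CPM in Saline. Combination kidneys were the highest, and 1 Cisplatin kidney lay above the Dichloroacetate kidneys while its 2 group mates lay below them. The log2 fold changes nearly mirrored each other, at -0.61 ± 0.09 in Cisplatin versus Saline and 0.59 ± 0.09 in the combination versus Dichloroacetate. An antisense gene, 1700042O10Rik, overlaps Ddc with a mean of 140 counts per library, and the sources used here do not say whether counting used strand. That gene was itself called in opposite directions, at -0.55 in Cisplatin versus Saline and 0.78 in the combination versus Dichloroacetate. Whether the same reads enter both genes was not tested.

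Over the whole table, 29.7% of tested genes were called higher and 30.4% lower in Cisplatin versus Saline. The shares were 21.5% and 19.2% in the combination versus Dichloroacetate. Beside these shares, other genes of renal dopamine synthesis, breakdown and reception were called in both directions. Of 13 tested, 4 were called higher and 5 lower in Cisplatin versus Saline (median -0.11), and 6 higher and 5 lower in the combination versus Dichloroacetate (median 0.18). With library totals, 6 were higher and 4 lower (median 0.17), and 6 higher and 3 lower (median 0.37). Gch1, which starts synthesis of the tetrahydrobiopterin cofactor, rose by 1.41 in Cisplatin versus Saline (edgeR adjusted p = 2.4e-05) and stood at 0.24 in the combination versus Dichloroacetate (adjusted p = 0.4). Maob, a monoamine oxidase, stood at 0.05 (adjusted p = 0.82) and 0.84 (adjusted p = 0.0013), and its interaction of 0.79 was not called in 8 of 12 fits with 1 library left out (0.60 to 0.80). Slc3a2, a heavy chain of amino acid transporters, rose in both, at 1.70 (adjusted p = 7.6e-10) and 0.96 (adjusted p = 4.5e-07).

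Bhmt (ENSMUSG00000074768, GRCm38 chr13:93616675-93637961, minus strand) encodes betaine-homocysteine methyltransferase, which uses betaine to turn homocysteine into methionine. Its levels were 11.6, 8.48 and 14.4 CPM in the combination, 4.57, 4.73 and 5.8 CPM in Cisplatin, 3.84, 5.05 and 4.96 CPM in Dichloroacetate, and 7.97, 8.98 and 8.19 CPM in Saline. The combination kidneys were the most scattered, 1 of them fell within the Saline range, and Cisplatin and Dichloroacetate kidneys overlapped. Its log2 fold change was -0.73 ± 0.17 in Cisplatin versus Saline and 1.32 ± 0.17 in the combination versus Dichloroacetate, the largest rise of the 10 genes. Bhmt is abundant in liver, and Saline replicate 2, which held liver transcripts, had its highest Saline level. Without that library the value in Cisplatin versus Saline was -0.68 and that in Dichloroacetate versus Saline was -0.82, against -0.87 with it.

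Counting of Bhmt is uncertain, since 25.3% of its 50-base windows also occur elsewhere, among others in Bhmt2, Gm5096 and Bhmt-ps1, and the antisense gene Gm15622 overlaps it with a mean of 41.9 counts. Gm15622 and Gm5096 were themselves called in opposite directions, at -0.94 in Cisplatin versus Saline and 1.15 in the combination versus Dichloroacetate, and at -0.60 and 1.40. Their falls were not called in 1 and 4 alternative fits. Bhmt-ps1 stood at -0.38, not called, and 1.23. Bhmt2, the neighbouring paralogue of Bhmt, was lower in both comparisons, at -1.34 (edgeR adjusted p = 1.4e-08) and -0.43 (adjusted p = 0.00086). The promoter is printed because it carries 3 copies of the nuclear receptor half-site AGGTCA, shown in capitals (GRCm38.p6, chr13:93637709-93638008, minus strand), more than any other promoter found for these genes.
Bhmt: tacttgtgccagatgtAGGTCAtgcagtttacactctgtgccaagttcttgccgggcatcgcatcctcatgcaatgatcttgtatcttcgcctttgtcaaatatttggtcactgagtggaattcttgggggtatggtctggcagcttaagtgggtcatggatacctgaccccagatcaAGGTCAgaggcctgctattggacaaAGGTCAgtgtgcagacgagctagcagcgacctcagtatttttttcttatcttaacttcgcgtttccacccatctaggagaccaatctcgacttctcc

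In the list of betaine, methionine and one-carbon transfer, 2 of 22 other tested genes were called higher and 17 lower in Cisplatin versus Saline (median -0.60), and 1 higher and 13 lower in the combination versus Dichloroacetate (median -0.28). With library totals, 4 were higher and 14 lower (median -0.33), and 5 higher and 9 lower (median -0.08). Gatm and Gamt, which make creatine, stood at -3.74 (edgeR adjusted p = 3.9e-11) and -1.53 (adjusted p = 4.4e-07) in Cisplatin versus Saline. In the combination versus Dichloroacetate the same genes stood at -2.90 (adjusted p = 6.1e-10) and -0.69 (adjusted p = 0.001). No other gene of the list was called in opposite directions.

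**Figure D3:**
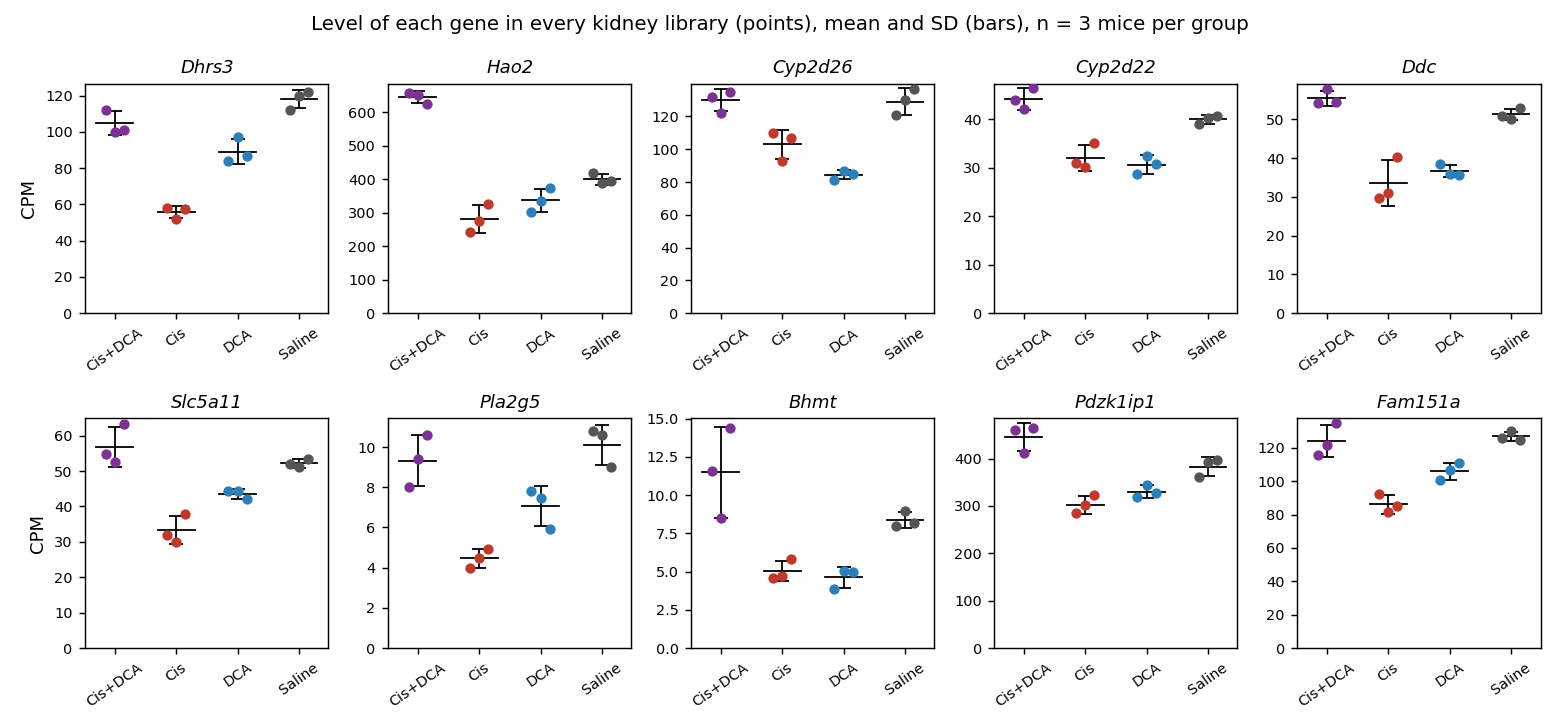
CPM of each of the 10 genes in every library of the combination (Cis+DCA), Cisplatin (Cis), Dichloroacetate (DCA) and Saline groups. Points are kidneys, long lines are means and bars are SD over 3 mice. In each panel all Cisplatin points lie below all Saline points, and all combination points lie above all Dichloroacetate points.

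Pla2g5 (ENSMUSG00000041193, GRCm38 chr4:138799244-138863482, minus strand) encodes a secreted phospholipase A2 that releases fatty acids from membrane phospholipids. It had 8, 9.43 and 10.6 CPM in the combination, 4, 4.46 and 4.92 CPM in Cisplatin, 7.81, 7.46 and 5.93 CPM in Dichloroacetate, and 10.8, 10.6 and 9.03 CPM in Saline. Cisplatin kidneys were the lowest, combination and Saline kidneys overlapped, and the lowest combination kidney lay just above the highest Dichloroacetate kidney. Pla2g5 stood at a log2 fold change of -1.18 ± 0.13 in Cisplatin versus Saline, the largest fall of the 10 genes, and 0.40 ± 0.13 in the combination versus Dichloroacetate. The rise was not called without Dichloroacetate replicate 3 (0.29), combination replicate 2 (0.39) or combination replicate 3 (0.29). Among 11 other tested phospholipases A2, 2 were called higher and 4 lower in Cisplatin versus Saline (median -0.19), and 1 higher and 2 lower in the combination versus Dichloroacetate (median -0.10). With library totals these medians were 0.08 and 0.09, with 3 higher and 4 lower, and 3 higher and 0 lower. Pla2g2c, a secreted enzyme, stood at -1.34 (edgeR adjusted p = 7.8e-06) and -0.38 (adjusted p = 0.064), and the calcium-independent Pla2g6 at -0.45 (adjusted p = 8.4e-06) and -0.10 (adjusted p = 0.15).

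Slc5a11 (ENSMUSG00000030769, GRCm38 chr7:123214780-123273253, plus strand) encodes a sodium-coupled myo-inositol transporter. Its levels were 54.9, 52.6 and 63.2 CPM in the combination, 31.9, 30.1 and 37.8 CPM in Cisplatin, 44.5, 44.3 and 42 CPM in Dichloroacetate, and 51.9, 51.1 and 53.5 CPM in Saline. Combination and Saline kidneys overlapped, and the Dichloroacetate kidneys lay between them and the Cisplatin kidneys without overlap. On the log2 scale it stood at -0.65 ± 0.08 in Cisplatin versus Saline and 0.38 ± 0.08 in the combination versus Dichloroacetate. Of 14 other tested genes of the Slc5 family and of inositol handling, 1 was called higher and 8 lower in each of these comparisons, with medians of -0.81 and -0.45. With library totals, 3 were higher and 7 lower, and 2 higher and 7 lower. Slc5a12, a lactate transporter of the brush border, stood at -2.18 (edgeR adjusted p = 8.6e-08) and -0.79 (adjusted p = 0.0012). Slc5a10, a mannose and fructose transporter, stood at -1.65 (adjusted p = 5.4e-08) and -0.59 (adjusted p = 0.0011). Slc5a9, a mannose transporter, stood at -0.00 (adjusted p = 0.96) and 0.79 (adjusted p = 3.8e-07), and the first value was 0.27 with library totals.

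Pdzk1ip1 (ENSMUSG00000028716, GRCm38 chr4:115088708-115093899, plus strand) encodes a small membrane protein that binds the brush border scaffold Pdzk1 and is needed for renal glucose uptake by Slc5a2. It had 461, 412 and 464 CPM in the combination, 284, 302 and 322 CPM in Cisplatin, 318, 345 and 327 CPM in Dichloroacetate, and 360, 393 and 397 CPM in Saline. Every combination kidney was above every Saline kidney, and Cisplatin and Dichloroacetate kidneys overlapped. The log2 fold change was -0.34 ± 0.07 in Cisplatin versus Saline and 0.43 ± 0.07 in the combination versus Dichloroacetate. Per kilobase of exon it was the most abundant of the 10 genes in Saline, at 216 CPM per kb, next to 195 CPM per kb for Hao2, while Bhmt was the least abundant at 1.46 CPM per kb.

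Fam151a (ENSMUSG00000034871, GRCm38 chr4:106733889-106748292, plus strand) had 116, 122 and 135 CPM in the combination, 92.2, 81.3 and 84.9 CPM in Cisplatin, 101, 107 and 111 CPM in Dichloroacetate, and 126, 130 and 125 CPM in Saline. Cisplatin kidneys were the lowest, and combination and Saline kidneys overlapped. The log2 fold change was -0.56 ± 0.07 in Cisplatin versus Saline and 0.23 ± 0.07 in the combination versus Dichloroacetate, and the rise was not called without Dichloroacetate replicate 1 (0.19) or combination replicate 3 (0.15). Acot11, a thioesterase gene on the opposite strand with a mean of 4214 counts per library, overlaps Fam151a, and use of strand in counting is not stated. Acot11 was called lower in Cisplatin versus Saline, at -0.77, and stood at -0.01 in the combination versus Dichloroacetate, not called. Whether the same reads enter both genes was not tested. A separate list held partners of the brush border PDZ scaffold, which Pdzk1ip1 binds. Of 20 tested there, not counting the picked genes, 4 were called higher and 14 lower in Cisplatin versus Saline (median -0.92). In the combination versus Dichloroacetate, 4 of these partners were called higher and 13 lower (median -0.39). With library totals, 6 were higher and 11 lower, and 5 higher and 9 lower. Slc34a3, a phosphate transporter, stood at -0.94 (edgeR adjusted p = 5.1e-07) and -0.23 (adjusted p = 0.038), with the second not called with library totals (-0.04) or without Dichloroacetate replicate 1 or 2 or combination replicate 1 or 2 (-0.22 to -0.17). Lrp2, the endocytic receptor megalin, stood at -1.98 (adjusted p = 7e-09) and -0.87 (adjusted p = 3.5e-05), and the phosphate transporter Slc34a1 at -2.13 (adjusted p = 5.8e-11) and -1.18 (adjusted p = 2.5e-08). Among the genes of the 8 pathway lists reported here, Paox and Cyp2d40 were the other genes called in opposite directions.

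Level with dichloroacetate alone was lower than with saline for each of the 10 genes, and in none did the 3 Dichloroacetate and 3 Saline kidneys overlap. The log2 fold change in Dichloroacetate versus Saline ran from -0.87 ± 0.17 in Bhmt to -0.22 ± 0.06 in Pdzk1ip1, with a median of -0.40, where the median tested gene stood at -0.01 and the 5th percentile at -0.37. Of all tested genes 8.37% were lower without overlap in this comparison, 0.182% were called lower, and 0.309% were called in either direction. Called lower among the 10 were Dhrs3 (-0.41 ± 0.07), Cyp2d26 (-0.62 ± 0.07), Cyp2d22 (-0.38 ± 0.06) and Ddc (-0.48 ± 0.09). Because genes were picked for high Saline values and low Dichloroacetate values, this is a description and not an independent result. It is also the comparison with the fewest calls, 63 genes in all, and 2427 genes had an unadjusted p below 0.05. Leaving out 1 library gave 1 to 4 called among the 10, with Cyp2d26 alone without Saline replicate 1 or 2, Dichloroacetate replicate 1 or 3, Cisplatin replicate 2 or combination replicate 1.

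The interaction equals the difference of the combination from Cisplatin minus that of Dichloroacetate from Saline, so it can be divided between mice with and without cisplatin. The Dichloroacetate versus Saline difference made up 17.1% of it in Hao2, 25.1% in Slc5a11, 27.9% in Pdzk1ip1 and 31.0% in Dhrs3. It made up 42.4% in Bhmt, 45.3% in Cyp2d22 and 65.1% in Cyp2d26. The remainder holds both a high combination and a low Cisplatin level. On the log2 scale against Saline, Hao2 stood at 0.69 in the combination, -0.51 in Cisplatin and -0.25 in Dichloroacetate. Cyp2d26 stood at 0.00, -0.33 and -0.62 in the same order, and was thus mainly low in Dichloroacetate. In the combination versus Cisplatin all 10 genes were higher without overlap, by 1.26-fold in Cyp2d26 to 2.29-fold in Hao2, where 25.2% of tested genes were higher without overlap and 18.1% were called higher. Because genes were picked for high combination values and low Cisplatin values, this too is a description and not an independent result.

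Against Saline, the combination ranged from 88.5% of the Saline mean in Dhrs3 to 161% in Hao2. Cisplatin ranged from 44% in Pla2g5 to 80.1% in Cyp2d22, and Dichloroacetate from 55.1% in Bhmt to 86.1% in Pdzk1ip1. In the combination versus Saline, Hao2, Bhmt and Pdzk1ip1 were called higher, where 20.6% of tested genes were called higher, at log2 fold changes of 0.69, 0.45 and 0.22. Leaving out 1 library gave 1 to 4 called higher, and library totals gave 6 (also Cyp2d22, Ddc and Slc5a11). The Hao2 call held each time, that of Pdzk1ip1 was lost without Saline replicate 1, combination replicate 1 or combination replicate 3, and that of Bhmt without any Saline replicate, Cisplatin replicate 1 or 2, or combination replicate 1 or 3. Bhmt was also not called with upper-quartile factors, with limma or with only the 2 groups fitted. Dhrs3 was called lower than Saline with DESeq2, upper-quartile factors and limma, and without Saline replicate 1, Dichloroacetate replicate 2 or combination replicate 1. The lowest Bhmt value was 0.25, without combination replicate 3. Hao2, Cyp2d22, Ddc and Pdzk1ip1 were higher than Saline without overlap (26.7% of tested genes) and Dhrs3 lower without overlap (23.6%), while the other 5 genes overlapped Saline.

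**Figure D4:**
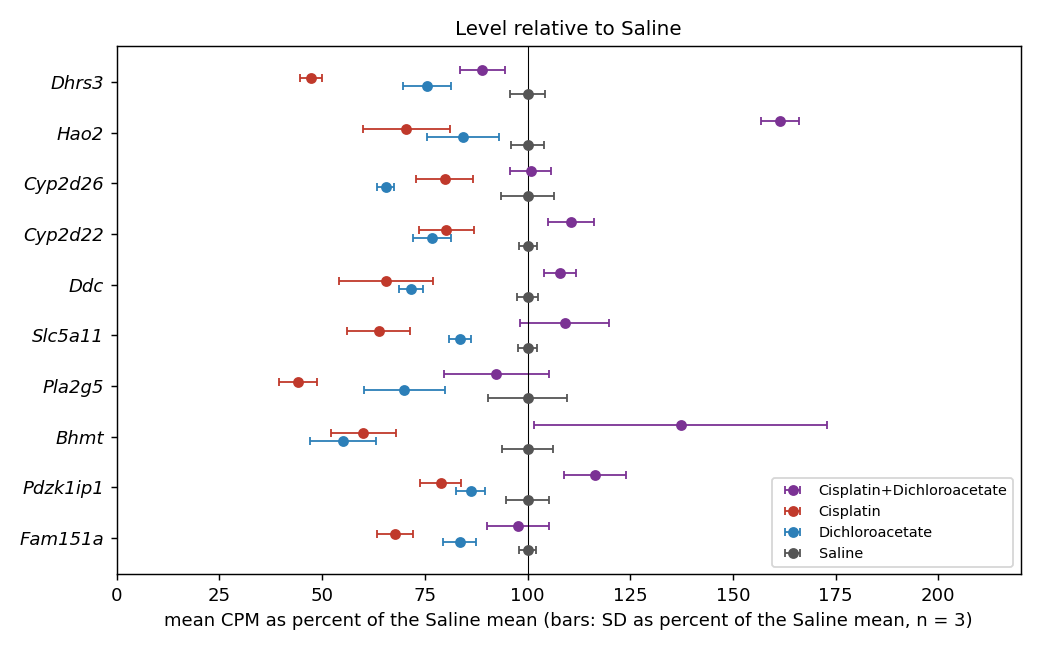
Mean level of each of the 10 genes as a percent of its Saline mean in the combination, Cisplatin and Dichloroacetate, with bars of 1 SD over 3 mice and a line at 100%. Hao2 reaches 161% in the combination, and every Cisplatin and Dichloroacetate value lies below 100%.

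Proximal tubule markers were compared kidney by kidney with the 10 genes. The median of the 10 genes was 105%, 101% and 111% of the Saline mean in the 3 combination kidneys, 60.9%, 62.1% and 75.5% in Cisplatin, 75.2%, 81.6% and 75.3% in Dichloroacetate, and 98.2%, 101% and 102% in Saline. For 18 markers of all proximal tubule segments it was 49.1%, 47.2% and 52.3% in the combination, 22.9%, 24.6% and 29.9% in Cisplatin, 96.2%, 92.7% and 107% in Dichloroacetate, and 92.3%, 99.2% and 108% in Saline. In every cisplatin-injected kidney the median of the 10 genes was above that of the markers, and in every Dichloroacetate kidney it was below, although the ranges of single genes overlap. The 10 genes, unlike the markers, were picked for high combination and low Dichloroacetate values, so the rule favoured the contrast in these groups. Of these 18 markers, 17 were called lower in Cisplatin versus Saline and 15 lower in the combination versus Dichloroacetate, and none was called higher in either. In whole kidney, fewer cells of a type and less RNA per cell cannot be told apart.

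**Figure D5:**
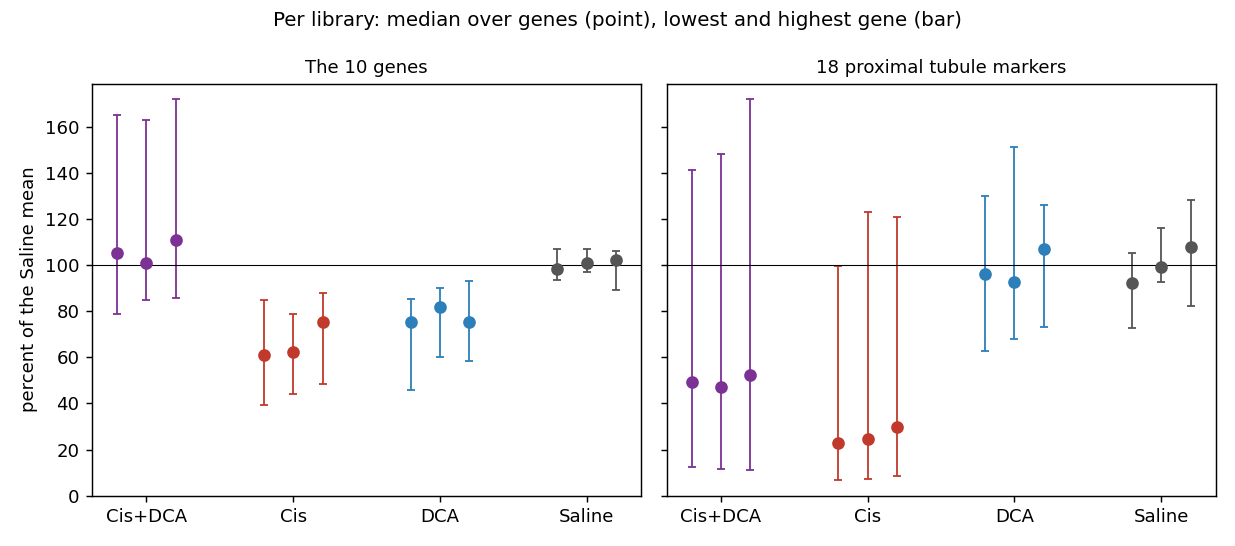
Percent of the Saline mean in each kidney of the combination (Cis+DCA), Cisplatin (Cis), Dichloroacetate (DCA) and Saline groups, for the 10 genes (left) and 18 proximal tubule markers (right). Points are medians over genes and bars run from the lowest to the highest gene. Combination kidneys sit at 101% to 111% for the 10 genes, which were picked for high values there, and at 47.2% to 52.3% for the markers.

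Summed proximal tubule markers reached 17189 to 19435 CPM in the combination, 9531 to 11822 CPM in Cisplatin, 29927 to 33209 CPM in Dichloroacetate and 28587 to 32569 CPM in Saline, and none of the 18 was at 0. Summed tubular injury genes (10 genes, among them Havcr1, which encodes KIM-1) reached 1037 to 1173 CPM in the combination, 1575 to 2051 CPM in Cisplatin, 441 to 515 CPM in Dichloroacetate and 453 to 525 CPM in Saline. Summed hepatocyte markers stood at 33.7 to 36.4 CPM in the combination, 73.9 to 86.7 CPM in Cisplatin, 13.9 to 15.5 CPM in Dichloroacetate and 16.6 to 28.4 CPM in Saline. Of those 13 markers 10 averaged under 1 CPM, and Fga, which encodes a fibrinogen chain, held most of the sum. Of the 5 hepatocyte markers tested, 1 was called higher and 2 lower in Cisplatin versus Saline. The injury and hepatocyte sums were both higher in every Cisplatin kidney than in any other kidney, whereas the 10 genes were below Saline there. Their part in the values of the 10 genes was not tested.

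Across the 12 libraries the 45 pairs among the 10 genes had Pearson correlations of 0.51 to 0.98 in log2 CPM, with a median of 0.82. The shared choice on group means sets much of this. After removal of each group's mean the median was 0.37, with a range of -0.33 to 0.83. Outside the 10 genes, those most like their mean standardised profile were Adra1a (r = 0.966 over 12 libraries), Dnajc4 (0.946), Sult1c2 (0.924), Abl1 (0.921), Hpcal1 (0.918), Gpat3 (0.918), Zfp704 (0.915), Gm15622 (0.914), Ccdc163 (0.914) and Neu1 (0.907). Gm15622 is the antisense gene that overlaps Bhmt. Adra1a, an adrenergic receptor, averaged 9.43 ± 0.905 CPM in the combination, 6.71 ± 0.751 CPM in Cisplatin, 7.24 ± 0.465 CPM in Dichloroacetate and 9.26 ± 0.294 CPM in Saline (SD, 3 mice each). Sult1c2, a sulfotransferase, averaged 208 ± 9.7 CPM in the combination, 159 ± 6.24 CPM in Cisplatin, 165 ± 2.54 CPM in Dichloroacetate and 192 ± 18.5 CPM in Saline. These correlations describe 12 libraries of 4 groups, and the genes were sought for them.

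By position, 4 of the 10 genes lie on chromosome 4, which holds 7.03% of tested genes with a position, and 2 lie in the Cyp2d cluster on chromosome 15. In the wider class of 97 genes, 9 of 95 with a position lie on chromosome 4. Promoter sequences from RefSeq were found for 9 of the 10 genes (13 promoters of 300 bases), and motifs were sought as exact letters on both strands. The half-site GTTAAT occurred in promoters of Hao2, Dhrs3 and Cyp2d26, and in 8.24% of 27025 genes. AGGTCA occurred in those of Bhmt, Ddc, Pla2g5 and Slc5a11, and in 18.1% of genes. TATAAA occurred in those of Cyp2d26 and Ddc, and in 15.7% of genes. No promoter of the 9 genes held the HNF4 motif CAAAGTCCA (0.555% of genes), the HNF1 motif (0.47%), or a direct repeat of AGGTCA with 1 base (0.0481%) or 5 bases (0.0111%) between the copies. GTTAAT is part of the HNF1 motif and AGGTCA of the repeats, and both were chosen after the promoters were seen, so their counts describe these windows only. Median GC content was 54.3% in the 13 promoters and 52.7% in all 32851.

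In the wider class of 97 genes, margins were compared among those with a group mean of at least 5 CPM. Margins were ranked by adjusted p in the combination versus Dichloroacetate only, outside the 10 genes, and not in Cisplatin versus Saline. The rise was called most narrowly in Gm2895 and Hdc, at 0.48 ± 0.18 each on the log2 scale. Dmxl2 at 0.17 ± 0.07 and Acaa2 at 0.24 ± 0.09 fell just outside. The medians of the class were -0.38 in Cisplatin versus Saline, 0.33 in the combination versus Dichloroacetate and 0.53 in the combination versus Cisplatin, and some of the 10 genes had smaller changes than these. Of the 97 genes, 85 lay below Saline in Dichloroacetate by sign and 8 were called in that comparison, 4 of these among the 10. Gm15622, Gm5096 and 1700042O10Rik, below 5 CPM in every group mean, were in the class with interactions of 2.09, 2.01 and 1.33. Among class genes outside the 10 with a group mean of at least 5 CPM, the largest interaction was that of Kynu, a kynureninase. Kynu stood at -0.75 in Cisplatin versus Saline and 1.24 in the combination versus Dichloroacetate, followed by Gm13855 at -1.07 and 0.34, and Gm2895 at -0.83 and 0.48. Next came Gm17035 at -0.82 and 0.45, Nav2 at -0.38 and 0.86, the glutamate receptor subunit Gria3 at -0.65 and 0.49, Phf11c at -0.81 and 0.30, and the sphingosine-1-phosphate transporter Spns2 at -0.72 and 0.33. The rise was not called in 11 of 19 alternative fits for Gm2895 and Gm17035, 8 for Gm13855 and 3 each for Phf11c and Spns2, and the fall was not called in 4 for Kynu and 3 for Nav2. Saline libraries were widely spread in Kynu (6.44 ± 2.71 CPM), Gm2895 (58.2 ± 18.3 CPM) and Gm17035 (393 ± 117 CPM). Leaving out combination replicate 3, combination replicate 1 or Cisplatin replicate 1 reduced the class to 55, 58 or 64 genes.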

How the data were processed

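Whole-kidney RNA of 12 mice was measured, and the total RNA was prepared, per the labels' protocols, with a silica column kit and DNase and sequenced from TruSeq RNA libraries. The submitters' processing notes name Trimmomatic, TopHat, Cufflinks, HTSeq, bedtools, DESeq and build mm10 (GRCm38). Versions and the strand setting of the counting are not given in the sources used here. Read counts per Ensembl gene were deposited by the authors, 1 column per library, with a table of normalised signal that served 1 alternative only. Of 28991 identifiers, 27955 were matched to a symbol and position in GENCODE M21, and 1036 were not.

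Genes passing filterByExpr (20370) were tested with the quasi-likelihood test of edgeR 4.0.16 in R 4.3.3 after TMM scaling. The model held a mean per group over all 12 libraries (8 residual degrees of freedom, biological coefficient of variation 0.092), and tests were 2-sided with Benjamini-Hochberg adjustment over all tested genes. Levels are CPM, and fold changes are log2. On simulated counts with 200 changed genes, 94% were recovered at a log2 change of -1 in Cisplatin versus Saline, 98% at 1 in the combination versus Dichloroacetate, and 99% at 2 in the interaction. The simulation held 18161 genes, few of them changed, whereas 60.1% of tested genes were called in Cisplatin versus Saline. Medians of the 10 genes were smaller, at -0.58 and 0.48, so these shares do not give the recovery of such changes. Replicates differed by 4.68 to 29 in chi-square per degree of freedom over genes with at least 10 counts, so no library was taken for a duplicate.

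The 10 genes and 24 lists (8 of pathways, 15 of cell type markers, 1 of tubular injury) were chosen with earlier results of these data known, and 1 listed gene is not reported here. Other genes were named by rule: list genes called in opposite directions, up to 3 more per list with the largest called interaction, the 10 most correlated genes, the 8 further genes of opposite response and the 5 of the reverse kind with the largest interaction, and Slc34a1, Lrp2, Havcr1 and Cdkn1a. Those 8 and 5 genes were sought only where a group mean reached 5 CPM, and the further list genes only where the average reached 1 CPM. Cyp2d11 and Cyp2d10 were named as cluster neighbours, Gm15622, Acot11 and 1700042O10Rik as overlapping genes, Gm5096 and Bhmt-ps1 for shared sequence, and Fga and Alb as markers. Alternatives were DESeq2 1.42.0, limma 3.58.1 on log2(normalised signal + 1), library totals, upper-quartile factors, no filter, only the 2 groups compared, a replicate block, and each library left out in turn.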

Additional observations from a re-analysis of the deposited data

Results flagged for a closer look

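The response to cisplatin differed with and without dichloroacetate in 70 genes named here, by edgeR's test of the interaction. For the 10 genes this difference was part of how they were picked and is given as a description. It was 2.06 for Bhmt, 1.58 for Pla2g5, 1.44 for Hao2, 1.31 for Dhrs3, 1.20 for Ddc, 1.03 for Slc5a11, 0.95 for Cyp2d26, 0.85 for Cyp2d22, 0.79 for Fam151a and 0.78 for Pdzk1ip1 on the log2 scale.

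Among the 60 other genes the interaction was above 0 in 50 and below 0 in 10, and list genes were named partly for its size. In the genes of retinoid metabolism it was 1.65 for Lrat, 0.84 for Stra6 and -1.77 for Adh7. In the list of peroxisomal oxidases and hydroxy acid enzymes it was 0.99 for Agxt2, 0.90 for Prodh2, 0.85 for Acox2 and 0.61 for Paox. Cytochromes P450 had 1.94 for Cyp2j7, 1.29 for Cyp2d12, 0.97 for Cyp2d9, 0.96 for Cyp2d11, 0.95 for Cyp2d40 and 0.82 for Cyp2d10. Dopamine-related genes had 0.79 for Maob, -0.75 for Slc3a2 and -1.16 for Gch1. Sodium cotransporters had 1.39 for Slc5a12, 1.06 for Slc5a10, 0.79 for Slc5a9 and 0.68 for Slc5a2. The phospholipases Pla2g2c and Pla2g6 had 0.96 and 0.35. One-carbon genes had 0.91 for Bhmt2, 0.84 for Gatm and 0.84 for Gamt. Brush border genes had 1.11 for Lrp2, 0.96 for Slc34a1 and 0.70 for Slc34a3, and the injury gene Havcr1 had -1.43. The fibrinogen gene Fga had -1.11.

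Further genes of opposite response, picked on the same contrasts, had 1.99 for Kynu, 1.41 for Gm13855, 1.31 for Gm2895, 1.27 for Gm17035, 1.25 for Nav2, 1.14 for Gria3, 1.12 for Phf11c and 1.05 for Spns2. At the edge of that class Hdc had 0.92, Acaa2 0.67 and Dmxl2 0.38. Genes of the reverse kind had -0.89 for Mir22hg, -0.70 for Msmo1, -0.66 for Med13, -0.53 for Stk35 and -0.43 for Kpna1.

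The genes most like the 10 in profile had 0.91 for Gpat3, 0.89 for Zfp704, 0.84 for Adra1a, 0.65 for Hpcal1, 0.60 for Sult1c2, 0.56 for Neu1, 0.49 for Dnajc4, 0.28 for Ccdc163 and 0.21 for Abl1. Genes that overlap members of the 10 or share sequence with Bhmt had 2.09 for Gm15622, 2.01 for Gm5096, 1.60 for Bhmt-ps1, 1.33 for 1700042O10Rik and 0.77 for Acot11. Of the 60 genes, 7 lost the call in at least 1 of 18 alternative fits: Ccdc163 in 16, Abl1 in 11, Maob in 8, Cyp2d10 in 6, Hdc in 4, Bhmt-ps1 in 3 and Cyp2d12 in 1.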

How the results depend on the processing

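None of the log2 fold changes of the 10 genes that were called turned round under the 19 alternatives, and 48 of 1130 recomputed values moved by more than the spread between replicates. All 10 genes were called in both comparisons that chose them under 6 of 7 whole-table alternatives, 7 were with library totals, and 8 to 10 were with 1 library left out. The class of opposite response held 97 genes, 98 with library totals of which 27 were shared, and 55 to 105 with 1 library left out. Genes called in Dichloroacetate versus Saline numbered 63 in the fit used, 134 with library totals, 119 without the filter, 15 with only the 2 groups compared, 336 with DESeq2, and 15 to 126 with 1 library left out. Among the 10 genes, 1 to 7 were called lower there. The class of the reverse kind held 11 genes, 24 with upper-quartile factors, 21 with limma on the normalised signal, and 7 to 23 with 1 library left out. With library totals, Slc5a9 (0.27), Abl1 (0.16), Ccdc163 (0.09), Dmxl2 (0.07), Dnajc4 (0.06) and Sult1c2 (0.01) were above 0 in Cisplatin versus Saline, Acot11 (0.18), Acox2 (0.01) and Kpna1 (0.01) in the combination versus Dichloroacetate, and Kpna1 (0.12) in the combination versus Saline. Causes were not tested. Of 7117 recomputed values for other named genes, 6677 kept side and direction.

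Replicate numbers were not treated as pairs in the fit used. Deviations of the 18 same-numbered pairs correlated at -0.1 to 0.15, with 4 over 0.1, each of which included a Dichloroacetate library. Differently numbered pairs were not compared, so these values cannot decide whether the numbers pair the samples. With a replicate block, 117 genes were called in Dichloroacetate versus Saline, 104 in the class of opposite response (91 shared) and 18 in the reverse class. Precision is limited by 3 mice per group and, for genes of few counts such as Pla2g5, by depth.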

Other observations

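The reverse pattern, higher in Cisplatin than in Saline but lower in the combination than in Dichloroacetate, was met by 11 genes (0.054% of those tested), fewer than the 97 of the opposite response. Mir22hg, the host transcript of a microRNA, averaged 35.6 ± 0.615 CPM in the combination, 59 ± 4.89 CPM in Cisplatin, 46.1 ± 3.85 CPM in Dichloroacetate and 41.3 ± 4.05 CPM in Saline (SD, 3 mice each). Its log2 fold changes were 0.51 in Cisplatin versus Saline and -0.37 in the combination versus Dichloroacetate. Msmo1, an enzyme of cholesterol synthesis, stood at 0.38 and -0.32, the Mediator subunit Med13 at 0.38 and -0.27, the kinase Stk35 at 0.30 and -0.23, and the nuclear import receptor Kpna1 at 0.25 and -0.18. These genes were picked on the same contrasts, so their values are a description.

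Fga, a fibrinogen chain, held 30.4 to 32.5 CPM in the combination, 68.1 to 81.4 CPM in Cisplatin, 11.1 to 12.7 CPM in Dichloroacetate and 12.2 to 14.8 CPM in Saline, with no overlap between the cisplatin-injected groups. Cdkn1a, the p53 target gene for p21, rose by 6.65 in Cisplatin versus Saline (edgeR adjusted p = 4.5e-11) and by 6.02 in the combination versus Dichloroacetate (adjusted p = 2.9e-10) on the log2 scale. Its interaction of -0.63 was not called (adjusted p = 0.12). Of the 15 cell type lists, 6 had no gene called by edgeR in the combination versus Cisplatin. Their medians were 0.01 (podocyte), -0.05 (endothelium), -0.80 (lymphocyte), -0.12 (fibroblast and smooth muscle), 0.10 (adrenal cortex) and -0.19 (adipocyte). Of their 29 tested genes, 1 had an unadjusted p below 0.05, 1 podocyte gene was called lower with library totals and with upper-quartile factors, and 1 adrenal gene was called higher by DESeq2.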
